A study of Rattus norvegicus with 9 samples.

Results

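The 10 genes described here mark or equip dendritic cells and Langerhans cells in rat back skin. They are Cd207, Ccr7, Itgax, Clec9a, Xcr1, Flt3, Cd80, Cd83, Cd86 and Cd40, and they were picked by symbol from the deposited tables. All 10 are among the 6025 rows that compare imiquimod with untreated skin. None is among the 399 rows that compare imiquimod plus lidocaine with imiquimod alone. The study sequenced RNA of back skin in 9 samples, 3 in each of 3 groups, from wild-type Sprague Dawley rats weighing 250 g. One group had imiquimod, a Toll-like receptor 7 agonist that induces psoriasis-like inflammation, on the back for 6 days plus epidural 1% lidocaine on 4 days from day 3. Another had the 6 days of imiquimod alone, and the untreated rats had neither. Skin was taken on day 7. No vehicle cream and no sham injection is among the labelled groups, and the labels do not say that each sample is a separate rat, so each p-value reflects only how far these samples vary, which may be technical.

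Dendritic cells take up antigen, travel to lymph nodes and present it to T cells. Langerhans cells are the dendritic cells of the epidermis and are recognised by langerin, a lectin encoded by Cd207 that forms Birbeck granules. They leave the epidermis when activated, and the chemokine receptor encoded by Ccr7 guides dendritic cells to lymph nodes. In mouse and human, Clec9a and Xcr1 mark type 1 conventional dendritic cells, which present antigen of dead cells to CD8 T cells. Flt3 encodes the growth factor receptor on which the development of conventional dendritic cells depends. Cd40, Cd80, Cd83 and Cd86 encode surface proteins that mature dendritic cells raise when they engage T cells. Several of these genes are also used by macrophages, B cells, T cells or NK cells. Which cells carried each gene in these samples, Cd207 included, was not measured.

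Langerin moved against the other 9 genes. Cd207 fell to 136 ± 129 normalized read counts in imiquimod skin, against 615 ± 236 in untreated skin (mean ± SD, n = 3 each). The other 9 rose, by log2 differences of 2.22 for Flt3 to 6.76 for Ccr7. By limma, 9 passed the adjusted p threshold of 0.05 as higher and 1 as lower. Of all rows compared, 87.8% passed, 47.0% higher and 40.8% lower, since the authors listed genes by their difference in these libraries, so a count of 10 of 10 is close to the background. The median log2 difference was 3.31 over the 9 higher genes, beside 2.16 over all 3326 rows that were higher. Cd207, at -2.68, lies beside a median of -1.85 over all 2699 rows that were lower. In whole skin, fewer cells of a type and less RNA per cell cannot be told apart.

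Promoter windows of the 250 bases before the start site, from RefSeq on GRCr8, were matched by symbol for 8 of the 10 genes. The windows of the gene that fell and of 3 that rose are shown, because each holds a match to a searched motif, 5′ to 3′ on the gene's strand, with each match in capitals. They lie at chr4:117719192-117719441 (minus strand) for Cd207, chr1:192149799-192150048 (plus) for Itgax, chr8:132364657-132364906 (minus) for Xcr1 and chr11:77669031-77669280 (plus) for Cd86.
Cd207: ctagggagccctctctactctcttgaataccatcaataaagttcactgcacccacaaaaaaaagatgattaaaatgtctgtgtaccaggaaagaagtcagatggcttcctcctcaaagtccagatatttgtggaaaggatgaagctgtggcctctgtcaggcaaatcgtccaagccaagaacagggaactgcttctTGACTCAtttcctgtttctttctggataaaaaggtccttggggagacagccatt
Itgax: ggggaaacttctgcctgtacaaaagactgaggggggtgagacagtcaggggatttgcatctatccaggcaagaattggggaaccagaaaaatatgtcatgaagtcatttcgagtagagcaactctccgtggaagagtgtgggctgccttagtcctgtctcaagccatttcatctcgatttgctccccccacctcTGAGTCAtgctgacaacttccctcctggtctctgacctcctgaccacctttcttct
Xcr1: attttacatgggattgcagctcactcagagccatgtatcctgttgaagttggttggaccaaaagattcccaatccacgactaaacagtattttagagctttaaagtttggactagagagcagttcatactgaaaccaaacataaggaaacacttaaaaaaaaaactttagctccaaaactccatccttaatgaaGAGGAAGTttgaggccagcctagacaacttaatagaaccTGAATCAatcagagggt
Cd86: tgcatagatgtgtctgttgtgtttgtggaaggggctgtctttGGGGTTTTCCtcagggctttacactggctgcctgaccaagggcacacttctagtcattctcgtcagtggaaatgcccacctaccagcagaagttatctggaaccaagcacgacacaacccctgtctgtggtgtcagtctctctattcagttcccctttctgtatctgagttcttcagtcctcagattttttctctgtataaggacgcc
The AP-1-like pattern TGANTCA, with any base at its centre, was found as TGACTCA in Cd207, TGAGTCA in Itgax and TGAATCA in Xcr1. Searched on both strands, it was found in 6.34% of all 33469 windows of this length. It stood 54 to 48 bases before the start in Cd207 and 56 to 50 bases before it in Itgax. The PU.1 motif GAGGAAGT was found in Xcr1 and in 2.04% of all windows. The NF-kB consensus was found in Cd86 and in 3.54% of all windows. TATAAA was in no window of the 8 genes and in 12.9% of all windows. No position in these windows was covered by 2 of the motifs. The motifs were chosen with the sequences in view, and a match is a description of letters, not a site of binding.

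**Figure D1:**
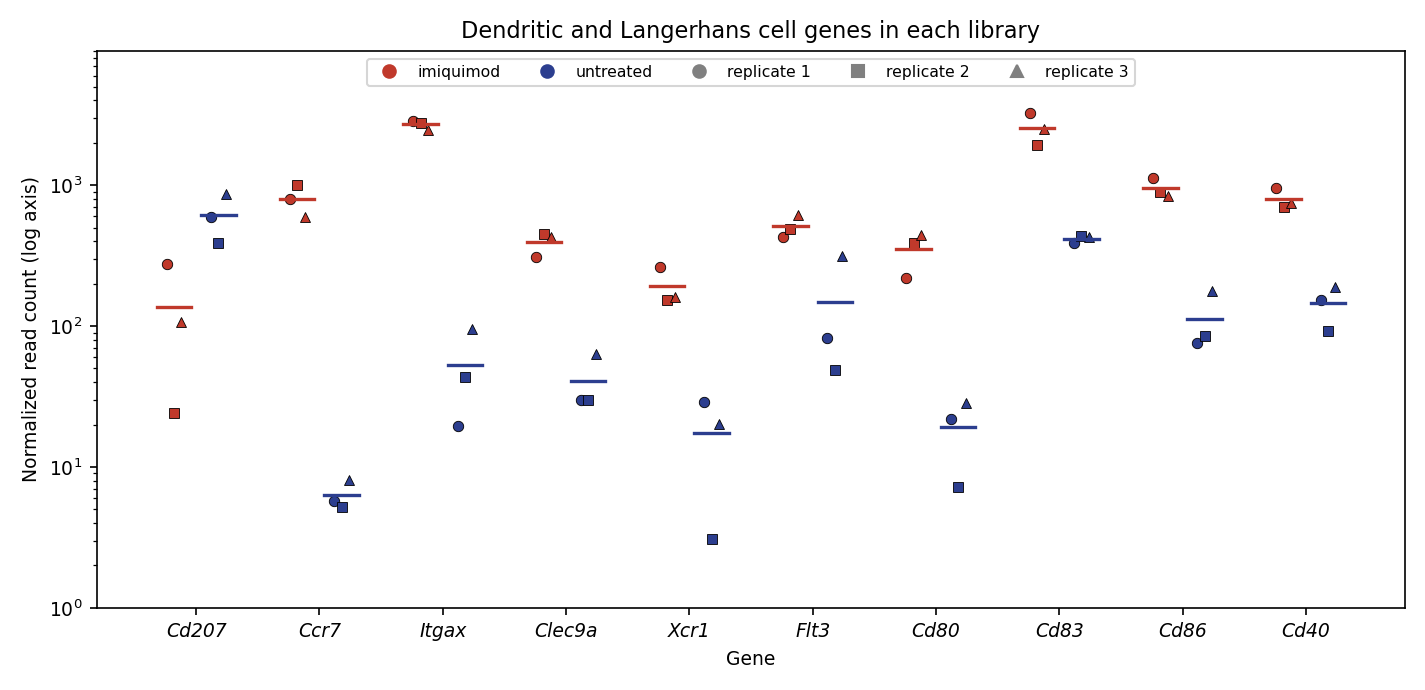
Normalized read counts (log axis) of the 10 genes in each library, imiquimod in red on the left of each pair and untreated in blue, with symbols for replicates and a line at the mean of 3. Cd207 is the gene whose imiquimod libraries (24.3 to 278) all lie below its untreated libraries (391.5 to 861), and in the other 9 genes every imiquimod library lies above every untreated one.

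Cd207 (ENSRNOG00000013222) had 278, 24.3 and 106 normalized counts in imiquimod replicates 1, 2 and 3, against 591, 391.5 and 861 in untreated replicates 1, 2 and 3. The groups did not overlap, and the lowest untreated library was 1.41-fold above the highest imiquimod library. Groups did not overlap for any of the 10 genes, as for 86.7% of all rows (45.9% higher and 40.8% lower with imiquimod). The log2 difference of Cd207 was -2.68 ± 0.88 (SE), with a 95% interval from -4.82 to -0.54 and a limma adjusted p of 0.028. The imiquimod libraries differed 11.4-fold among themselves, and the SD of their log2 values, 1.74, was the largest of the 10 genes. Imiquimod replicate 2 held 24 reads of Cd207, against 319 and 130 in replicates 1 and 3. Without imiquimod replicate 2 the log2 difference was -1.76 and still past the threshold (limma adjusted p = 0.039). The call was lost without imiquimod replicate 3, untreated replicate 1 or untreated replicate 3 (limma adjusted p = 0.061, 0.069 and 0.081).

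Ccr7 (ENSRNOG00000010665), which guides dendritic cells and naive T cells to lymph nodes, had the largest rise of the 10. It had 803, 999 and 598 normalized counts in the imiquimod libraries, against 5.76, 5.17 and 8.11 in the untreated ones, where 5, 5 and 8 reads were counted. Even the lowest imiquimod library was 73.8-fold above the highest untreated one. The log2 difference was 6.76 ± 0.32 (SE, limma adjusted p = 4.94e-05), and 140 of the 3326 higher rows had a larger one.

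Itgax (ENSRNOG00000036703) encodes CD11c, an integrin alpha chain of dendritic cells that macrophages and some NK cells also carry. It had 2876, 2761 and 2459 normalized counts in the imiquimod libraries, against 19.6, 43.4 and 95.3 in the untreated ones. The imiquimod libraries were within 1.17-fold of each other while the untreated ones spread over 4.87-fold. The log2 difference was 5.92 ± 0.57 (SE, limma adjusted p = 0.00044). Its partner chain Itgb2, which pairs with several leukocyte integrins, had a log2 difference of 4.43 ± 0.42 (limma adjusted p = 0.00042).

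The type 1 dendritic cell genes both rose. Clec9a (ENSRNOG00000051690), a receptor for actin exposed by dead cells, had 308, 447 and 426 normalized counts in the imiquimod libraries, against 29.9, 30.0 and 62.8 in the untreated ones. Xcr1 (ENSRNOG00000006620), the receptor of the chemokine Xcl1, had 264, 154 and 161 in the imiquimod libraries, against 28.8, 3.10 and 20.3 in the untreated ones. Their log2 differences were 3.31 ± 0.39 and 3.77 ± 0.77 (SE, limma adjusted p = 0.00092 and 0.0060). Xcr1 rested on 25, 3 and 20 reads in the untreated libraries, and without untreated replicate 2 its difference was 2.90, still past the threshold (limma adjusted p = 0.0042).

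Flt3 (ENSRNOG00000054764) had the smallest rise of the 9 genes and the narrowest gap between groups. It had 432, 490 and 616 normalized counts in the imiquimod libraries, against 81.8, 48.6 and 315 in the untreated ones. The lowest imiquimod library was 1.37-fold above untreated replicate 3, which stood apart from the other untreated libraries. The log2 difference was 2.22 ± 0.69 (SE, limma adjusted p = 0.023). It was 2.99 without untreated replicate 3 (limma adjusted p = 0.0028). The call was lost without imiquimod replicate 2 or 3 or untreated replicate 1 or 2 (limma adjusted p = 0.056, 0.069, 0.071 and 0.061).

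The 4 maturation genes rose by log2 differences of 2.49 for Cd40 to 4.25 for Cd80, and these rises were not tested against each other. Cd80 (ENSRNOG00000001527), a ligand of the T cell receptors CD28 and CTLA-4, had 219, 391.6 and 443 normalized counts in the imiquimod libraries, against 21.9, 7.23 and 28.4 in the untreated ones. Cd86 (ENSRNOG00000038835), the other ligand of that pair, had 1125, 896 and 831 in the imiquimod libraries, against 76.0, 84.7 and 176 in the untreated ones. The fold of group means was 18.3 for Cd80 and 8.46 for Cd86, with log2 differences of 4.25 ± 0.57 and 3.16 ± 0.40 (SE, limma adjusted p = 0.0014 and 0.0012). Cd80 rested on 19, 7 and 28 reads in untreated replicates 1, 2 and 3.

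Cd83 (ENSRNOG00000018092), a marker of mature dendritic cells that activated lymphocytes also carry, had 3268, 1920 and 2509 normalized counts in the imiquimod libraries, against 387, 433 and 426 in the untreated ones. Its untreated libraries were within 1.12-fold of each other, the tightest of the 10 genes. Cd40 (ENSRNOG00000018488), the receptor through which helper T cells license dendritic cells, had 950, 695 and 749 in the imiquimod libraries, against 153, 93.0 and 191 in the untreated ones. Their log2 differences were 2.59 ± 0.30 and 2.49 ± 0.36 (SE, limma adjusted p = 0.00085 and 0.0018). In both genes imiquimod replicate 1 was the highest and imiquimod replicate 2 the lowest library of the group, as in Cd207 and Xcr1.

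**Figure D2:**
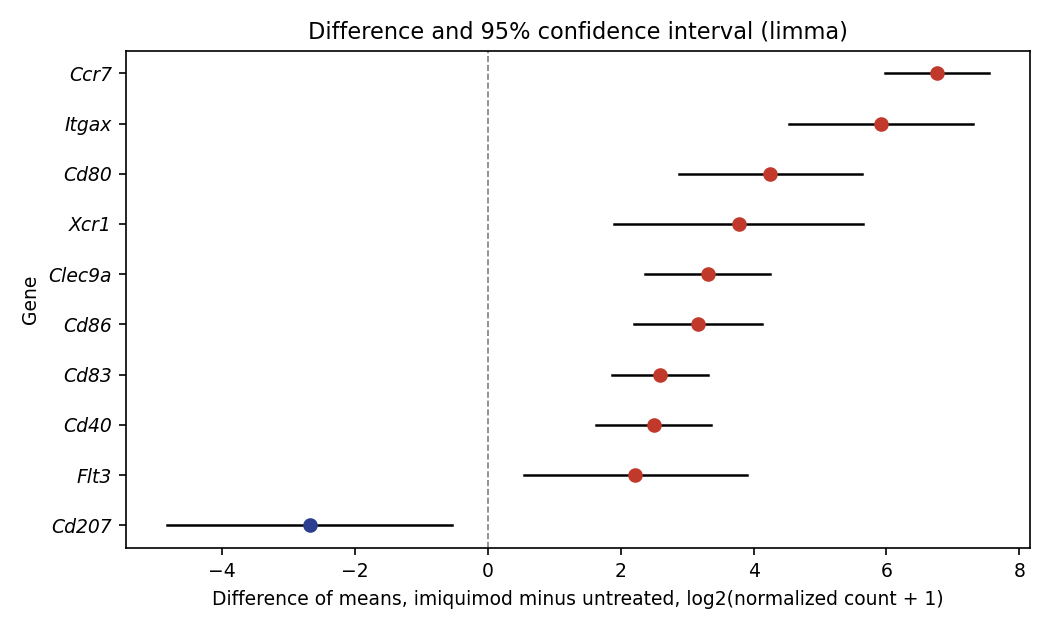
Imiquimod minus untreated difference of the mean log2(normalized count + 1), with the 95% confidence interval from limma (n = 3 libraries each), for the 10 genes. Cd207 lies below 0 with the widest interval, from -4.82 to -0.54, and Ccr7 is highest at 6.76.

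Spread within the groups was not the same for all genes. Among the imiquimod libraries the SD of log2 values ran from 0.12 for Itgax to 0.54 for Cd80 in the 9 genes that rose. Among the untreated libraries it ran from 0.087 for Cd83 to 1.53 for Xcr1. Untreated replicate 3 was the highest of its group for 8 of the 10 genes, all but Xcr1 and Cd83. The summed macrophage markers were also highest there, at 59652 normalized counts, against 31643 and 32720 in untreated replicates 1 and 2. The part of these other cells in the untreated spread was not tested. Without untreated replicate 3, 9 of the 10 genes passed, and the gene lost was Cd207.

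Setting Cd207 against each other gene within a library removes the library's own scaling. The log2 value of Cd207 minus that of Itgax was -3.37, -6.77 and -4.52 in the imiquimod libraries, against 4.85, 3.14 and 3.16 in the untreated ones. The difference of the means was -8.60. Against the 9 genes the differences of means ran from -9.44 for Ccr7 to -4.90 for Flt3. Since Cd207 was lower and each of the 9 higher in every imiquimod library, these ratios had to separate the groups. The exact permutation p of 0.1, the smallest that 3 against 3 libraries allow, was fixed by that, and the ratios are given as a description. In these ratios only the change between groups is read, since levels of different genes are not corrected for length.

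**Figure D3:**
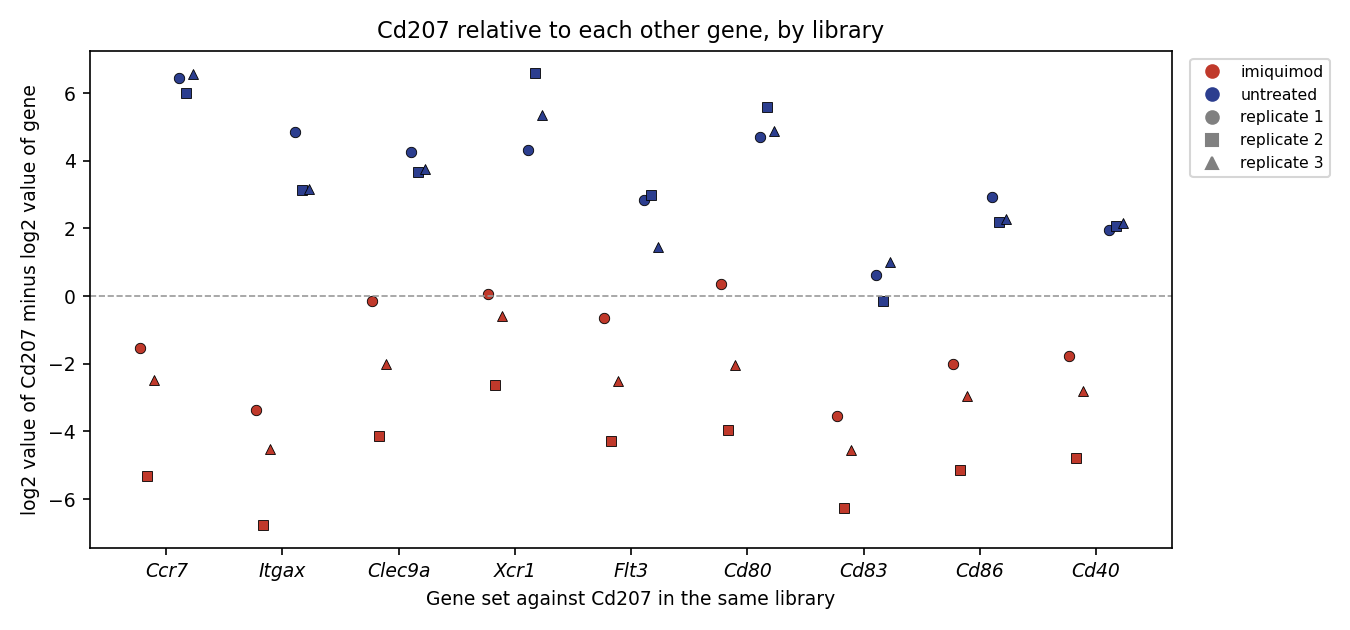
The log2 value of Cd207 minus that of each other gene in the same library, imiquimod in red on the left and untreated in blue, with symbols for replicates. For all 9 genes the imiquimod libraries lie below the untreated ones, and imiquimod replicate 2 is the lowest.

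Other genes of Langerhans cells and their epidermal surroundings moved both ways. Of the 24 genes in that list 16 were listed, with a median log2 difference of 1.23. Of those, 10 passed as higher and 5 as lower, beside 47.0% and 40.8% of all rows, and 1 did not pass. The lower ones included, beside Cd207, Bmp7, Epcam and Il34, which are named after their values were seen. Epcam, an adhesion protein of Langerhans cells and of epithelial cells, had 3621, 1373 and 3933 normalized counts in the imiquimod libraries, against 14835, 16144 and 11050 in the untreated ones (log2 difference -2.36 ± 0.48 SE, limma adjusted p = 0.0057). Il34, the keratinocyte cytokine that maintains Langerhans cells in mouse, had 811, 725 and 467 in the imiquimod libraries, against 1596, 1114 and 1918 in the untreated ones (-1.21 ± 0.36 SE, limma adjusted p = 0.020). Bmp7, a growth factor that promotes Langerhans cell differentiation, had a log2 difference of -2.75 ± 0.52 (SE, limma adjusted p = 0.0047).

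The higher genes of that list include regulators that other leukocytes share. Csf1r, the receptor of IL-34 and a macrophage gene, rose by 2.38 ± 0.40 on the log2 scale. Spi1, which encodes the myeloid transcription factor PU.1, rose by 3.94 ± 0.36. Runx3, a transcription factor needed for Langerhans cells in mouse and used by CD8 T cells, rose by 6.89 ± 0.87, and it was at 0 reads in untreated replicates 2 and 3. Tgfb1, whose product holds Langerhans cells in the epidermis, rose by 1.46 ± 0.33. Ccl20, a chemokine gene, rose by 1.96 ± 0.30. Id2, Axl, Tgfbr1 and Cd1d1 of the list also passed as higher, by 1.05 ± 0.29, 1.21 ± 0.30, 1.07 ± 0.29 and 1.25 ± 0.26. In all, 10 genes of the list passed as higher and 5 as lower. Tgfbr2 had a difference of 2.34 ± 0.94 and did not pass (limma adjusted p = 0.052).

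Epithelial markers also varied between the imiquimod libraries. Of all rows, 47.0% passed as higher and 40.8% as lower. All 16 genes of the hair follicle list were listed and lower. Their summed level was 50245, 4490 and 217097 normalized counts in imiquimod replicates 1, 2 and 3, against 1392990 to 2640570 in the untreated libraries. Of 15 interfollicular keratinocyte genes 7 were listed, 3 higher, 3 lower and 1 that did not pass. Their summed level was 794538, 590625 and 386639 in imiquimod replicates 1, 2 and 3, against 400031 to 452402 in the untreated libraries. In the interfollicular list Krt77 was at 0 in imiquimod replicate 1. Imiquimod replicate 2 was the lowest library for Cd207, Epcam, Bmp7 and the hair follicle sum. Il34 and the interfollicular sum were instead lowest in imiquimod replicate 3 among the imiquimod libraries. Imiquimod replicate 1 was above replicate 3 for Cd207, and below it for Epcam, Bmp7 and the hair follicle sum. The part of these epithelial levels in the fall of Cd207 was not tested.

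**Figure D4:**
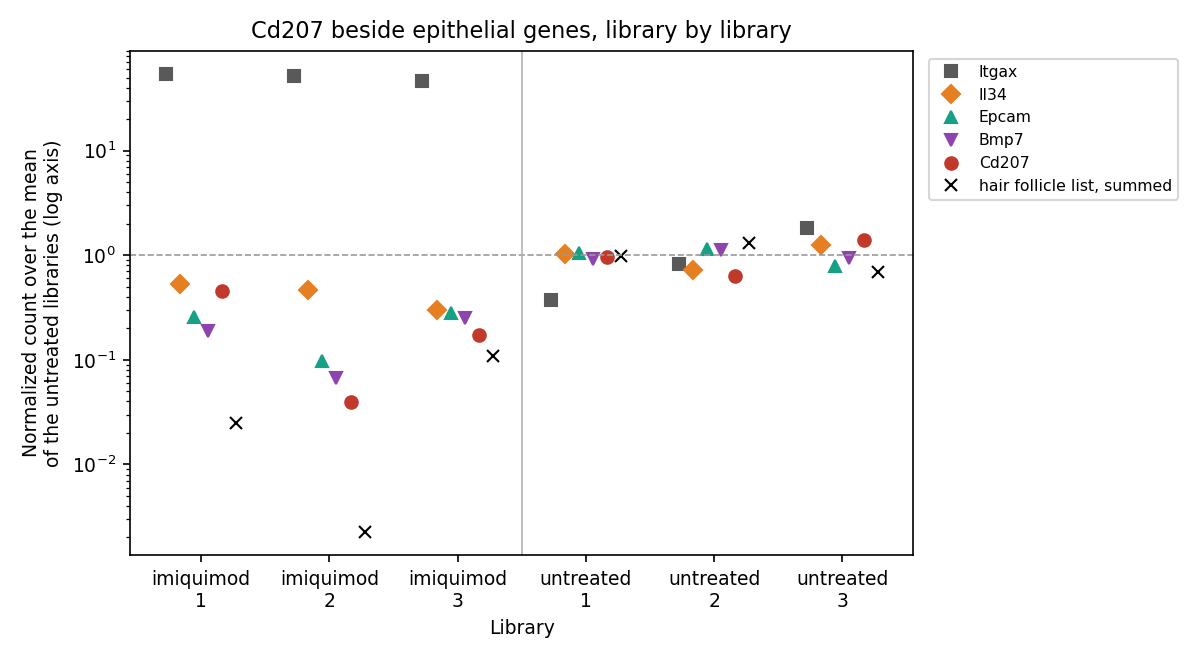
Normalized count over the mean of the untreated libraries (log axis) for Cd207, Epcam, Bmp7, Il34, Itgax and the summed hair follicle list in each library, imiquimod on the left. Cd207, Epcam, Bmp7 and the hair follicle sum are lowest in imiquimod replicate 2, where Cd207 had 24.3 normalized counts, while Itgax stays near its group's level there at 2761. Il34 is lowest in imiquimod replicate 3, at 467.

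Lists of the dendritic cell subsets rose as far as they were listed. For these counts, 47.0% of all rows passed as higher and 40.8% as lower, and the median of all higher rows was 2.16. Of 13 type 1 genes 9 were listed and all 9 were higher, Clec9a and Xcr1 among them. The other 7 had a median log2 difference of 2.60. Irf8, the transcription factor that specifies this subset, had 8723, 8297 and 10329.5 normalized counts in the imiquimod libraries, against 364, 347 and 532 in the untreated ones (log2 difference 4.48 ± 0.29 SE). Batf3, a second regulator of the subset in mouse, had 367, 182 and 262 in the imiquimod libraries, against 74.9, 50.6 and 65.9 in the untreated ones (2.03 ± 0.36 SE). Wdfy4, needed for cross-presentation in mouse, rose by 4.04 ± 0.45 and the endosomal receptor gene Tlr3 by 2.60 ± 0.40. Whether type 1 dendritic cells or other cells carried these rises was not tested.

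Of 14 type 2 genes 7 were listed and all 7 were higher, with a median of 3.16. The lectin genes Clec4a3, Clec4a1 and Clec7a rose by 5.06 ± 0.34, 4.85 ± 0.32 and 6.09 ± 0.46 on the log2 scale, and Clec10a by 2.53 ± 0.39. Macrophages express these lectins too, and Clec4a3 and Clec4a1 belong to a family of close copies whose reads may be shared. Of 12 plasmacytoid genes 9 were listed and all 9 were higher, with a median of 5.79. Among them were Irf7 (6.54 ± 0.27), Bst2 (3.62 ± 0.26) and Tlr7 (5.40 ± 0.41), which interferon also raises in other cells. Ccr9 was at 0 reads in all untreated libraries and at least 18.0-fold higher with imiquimod against a floor of 3 reads per library. Siglech, a receptor that marks plasmacytoid cells in mouse, had 70.5, 185 and 203 normalized counts in the imiquimod libraries, against 0, 3.10 and 10.1 in the untreated ones.

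**Figure D5:**
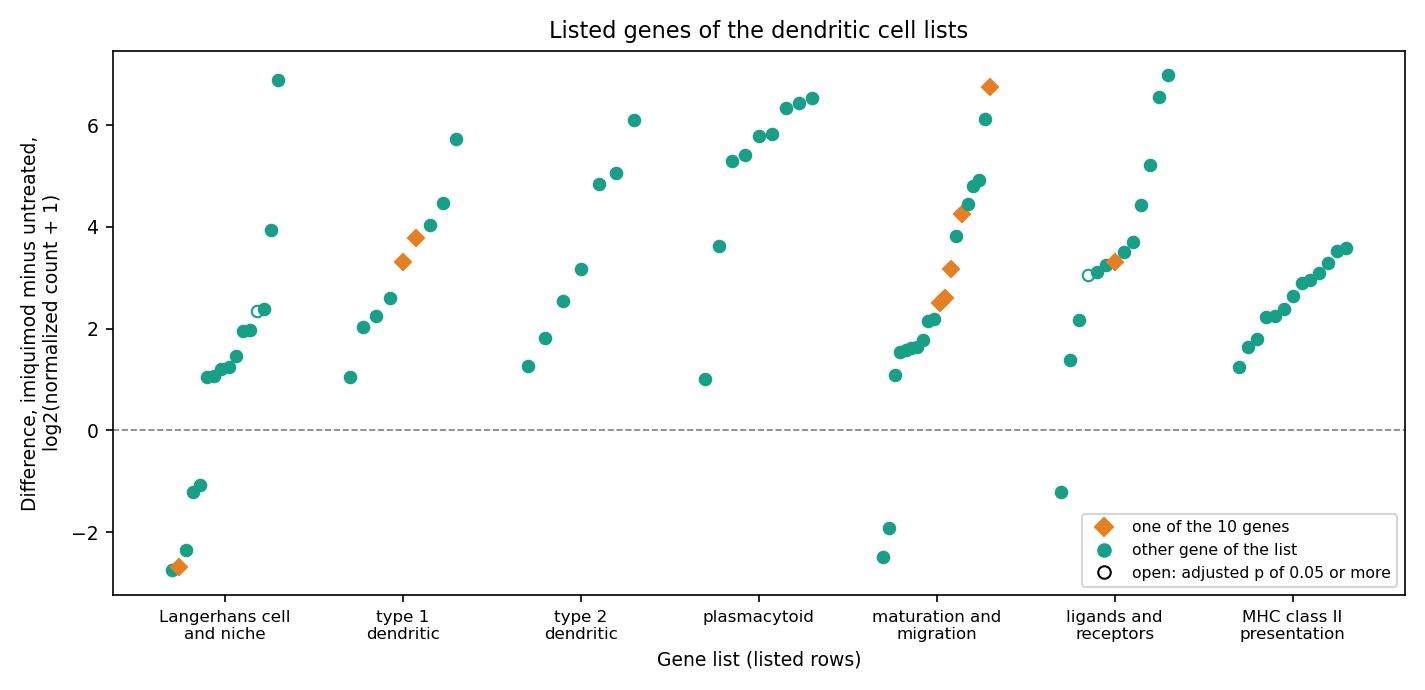
Log2 difference, imiquimod minus untreated, of each listed gene in 7 lists of dendritic cell genes, with the 10 genes as orange diamonds and other genes as green circles, open where the adjusted p was 0.05 or more. The Langerhans cell list spans both sides of 0, while all listed genes of the type 1, type 2, plasmacytoid and MHC class II lists lie above it.

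In the maturation and migration list 20 of 28 genes were listed, 18 higher and 2 lower, beside 47.0% and 40.8% of all rows. Apart from the 5 genes already described, 13 were higher and 2 lower with a median log2 difference of 1.77. Pdcd1lg2, which encodes the checkpoint ligand PD-L2, rose by 4.45 ± 0.41. Il12b, which encodes the p40 chain shared by IL-12 and IL-23, had 0 reads in the untreated libraries and at least 9.70-fold higher with imiquimod, and Tnfsf4, for OX40 ligand, at least 4.16-fold. The actin-bundling gene Fscn1 of migrating dendritic cells rose by 2.19 ± 0.41 and the NF-kB subunit gene Relb by 1.54 ± 0.28. The lower pair were the chemokine gene Ccl22, with 253, 101.2 and 93.2 normalized counts in the imiquimod libraries against 442, 545 and 547 in the untreated ones, and the transporter gene Slco5a1 (-2.50 ± 0.59).

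The list of ligands and receptors of the 10 genes holds 15 genes, of which 13 were listed, Clec9a among them. Of the other 12, 10 were higher, 1 was lower and 1 did not pass, beside 87.8% of all rows that passed in either direction. Xcl1, the ligand of the Xcr1 receptor, had 460, 143 and 237 normalized counts in the imiquimod libraries, against 6.91, 0 and 0 in the untreated ones (log2 difference 6.98 ± 0.92 SE, limma adjusted p = 0.0014). Ccl19, a ligand of the Ccr7 receptor, had 1650, 514 and 289 in the imiquimod libraries, against 108, 72.3 and 46.6 in the untreated ones (3.11 ± 0.70 SE, limma adjusted p = 0.0080). The T cell receptors of Cd80 and Cd86 both rose, Cd28 by 6.55 ± 1.10 and Ctla4 by 5.22 ± 1.13. Cd40lg, the ligand of Cd40, had 0, 19.2 and 27.8 normalized counts in the imiquimod libraries, was at 0 in the untreated ones and did not pass (limma adjusted p = 0.056). Csf2ra, a receptor chain for the growth factor GM-CSF, rose by 3.25 ± 0.36, and Icam1, a ligand of leukocyte integrins, by 2.16 ± 0.25.

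All listed genes of MHC class II presentation were higher, 13 rows for 12 of 16 symbols, beside 47.0% of all rows that passed as higher. The median log2 difference of the list was 2.64. The class II transactivator gene Ciita rose by 3.59 ± 0.56, the class II chain gene RT1-Da by 2.95 ± 0.43 and the protease genes Ctss and Lgmn by 3.29 ± 0.37 and 3.09 ± 0.27. Reads of RT1 genes may be shared between close copies. The summed level of the list was 249609 to 476483 normalized counts in the imiquimod libraries, lowest in replicate 2, against 54543 to 82961 in the untreated ones.

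Markers of other leukocytes rose beside the 9 genes, and their part in those rises was not tested. Beside the counts of these lists, 47.0% of all rows passed as higher and 40.8% as lower. In the macrophage and monocyte list 16 of 17 genes were listed and all 16 were higher, with summed levels of 336414 to 394751 normalized counts in imiquimod libraries, against 31643 to 59652 in untreated ones. The macrophage surface gene Adgre1 rose by 4.16 ± 0.33 and the IgG receptor gene Fcgr1a by 5.25 ± 0.34, while Cx3cr1 was at 0 in untreated replicates 2 and 3. In the T cell list 10 of 13 were listed and all 10 were higher, with sums of 20859 to 26697 in imiquimod libraries, against 730 to 2110 in untreated ones, where Cd28 was at 0 in replicate 2. All 8 NK cell genes were listed and higher, with sums of 16977 to 18889 in imiquimod libraries, against 232 to 371 in untreated ones, and Gzmb was at 0 in untreated replicates 1 and 2, Ncr1 in 1 and Eomes in 2. In the neutrophil list 8 of 10 were listed, 6 were higher and 2 did not pass, with sums of 76648 to 120329 in imiquimod libraries, against 3563 to 5182 in untreated ones. There Fpr1 was at 0 in every untreated library and in imiquimod replicate 1, and Mmp8 in untreated replicates 1 and 3.

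B cell markers were higher too, and B cells also carry Cd40, Cd83 and Cd86. Of 8 genes 5 were listed and all 5 were higher, beside 47.0% of all rows that passed as higher. The summed levels of these B cell genes were 546, 854 and 933 normalized counts in the imiquimod libraries, against 116, 106 and 268 in the untreated ones. Ms4a1, the CD20 gene, had 9.58, 28.3 and 9.81 in the imiquimod libraries, against 0, 0 and 4.05 in the untreated ones. Cd79b was at 0 in all 3 untreated libraries.

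Genes whose log2 values followed those of Cd207 most closely over the 6 libraries were Cd109, Fzd2, Rtn4r, Dkk3 and Wif1, with Pearson r from 0.994 to 0.977. They were ranked among 3811 named genes that averaged 100 normalized counts or more. Cd109 had 740, 145 and 442 normalized counts in the imiquimod libraries, against 1450, 1105 and 1484 in the untreated ones, with the same order of libraries within the imiquimod group as Cd207. For Ccr7 the closest were Phf11b, Nmi, Cfp, Sp110 and Oas1a, with Pearson r from 0.9996 to 0.9988. An r over 0.95 was reached by 37 genes for Cd207 and 1063 genes for Ccr7. These values describe 6 libraries in 2 groups that the rows were chosen to separate. They say little beyond the group difference and, for Cd207, the spread among its imiquimod libraries. Fzd2, Rtn4r, Dkk3 and Wif1 had the same order of imiquimod libraries as Cd207 and Cd109.

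The comparison of imiquimod plus lidocaine with imiquimod alone lists none of the 10 genes, so their levels with lidocaine are not analysed here. A gene that is not listed is not thereby unchanged. Of its 399 rows, 32.1% passed the adjusted p threshold of 0.05 in limma, 44 rows (11.0%) as higher with lidocaine and 84 rows (21.1%) as lower. With the medians of the listed genes set equal, 128 rows passed as higher and 24 as lower. As 268 of the rows are listed as lower and 131 as higher, that setting moves the balance by construction. It cannot show whether the balance depends on the scaling. With a pseudocount of 10 or a minimum mean of 100 normalized counts limma called 0 rows, with 286 and 118 rows at an unadjusted p under 0.05. Groups did not overlap in 71.9% of its rows, 27.1% higher and 44.9% lower. From the 7 lists of dendritic cell genes 4 genes are listed, and none of them passed. Xcl1 had 843, 439 and 589 normalized counts with lidocaine, against 460, 143 and 237 with imiquimod alone (log2 difference 1.27 ± 0.56 SE, limma adjusted p = 0.070), and the groups overlapped. Ccl17, a chemokine gene of dendritic cells, had 67.8, 32.6 and 62.0 with lidocaine, against 26.1, 9.11 and 31.9 with imiquimod alone (1.34 ± 0.58 SE, limma adjusted p = 0.070). Ltb, for lymphotoxin beta, had a log2 difference of 1.12 ± 0.50 and the integrin gene Itgb8 of -1.91 ± 0.76 (limma adjusted p = 0.072 and 0.065).

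Per library, 15947423 to 22929894 reads fell on genes listed for imiquimod against untreated, and 417714 to 803921 on those listed for lidocaine. How many reads each library held in all is unknown. The 10 genes took 3 to 3752 reads each per library.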

How the data were processed

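RNA was measured in 9 samples grouped by title. Skin was frozen and ground, and its RNA was isolated with TRIzol, per the labels' protocols. Tools named in the submitters' processing notes are STAR 2.5.3a, bcl2fastq and DESeq2. The sources used here do not give the counter, genome build, annotation, strand setting or rule for listing genes. The authors deposited log2(normalized count + 1) per library, in 2 tables of 6025 and 399 rows. The imiquimod libraries appear in both with equal values (largest difference 4.97e-09). The smallest difference of group means is 1.0 in each table, so adjusted p-values over rows chosen on the same libraries are too small. After removal of the log, values of up to 2000 reads were whole multiples of 1 read within 0.01, which gave reads. Intervals come from the spread between libraries, and floors cover counting error only.

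Each table was fitted alone with limma 3.58.1 in R 4.3.3 (lmFit, eBayes, no block), with Benjamini-Hochberg adjustment over all its rows and a threshold of 0.05. Because 1 was added before the log2, differences of genes with few reads are understated. The fit was tested on simulated data with normal noise of a common spread and 200 changed genes. That test did not cover rows chosen by their difference, so it does not bear on the p-values given here. Tables used python 3.11.15, numpy 2.4.6 and pandas 2.3.3, permutation tests scipy 1.17.1 and figures matplotlib 3.10.9. A gene at 0 reads in a group is set against a floor of 3 reads per library.

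The 10 genes and the 14 lists were chosen with earlier results of these data known, so no p is given for a list. Up to 4 genes per list that passed, with the smallest adjusted p, are named by rule, and other list genes were named after their values were seen. Promoter windows are RefSeq's (GRCr8), cut to the 250 bases before the start. The tables hold no gene coordinates. One gene counted in a list is not reported here by name.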

Additional observations from a re-analysis of the deposited data

How the results depend on the processing

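Of 140 values of the 10 genes under alternatives, 129 kept their call and 11 lost it, 5 for Cd207 and 6 for Flt3. Those 11 came from leaving out a library, from adjustment as if all 23154 protein-coding genes of the RefSeq table had been tested (limma adjusted p = 0.107 for Cd207 and 0.0902 for Flt3) and from an adjusted p threshold of 0.01. The other 8 genes kept their call in all of them. The count of the 10 genes past the threshold was 8 under each of these last settings and 8 to 10 when 1 library was left out. Pseudocounts of 0.1 and 10, a minimum mean of 100, a trend and robust prior and equal medians left it at 10. None of the 140 values changed direction, but only equal medians could have reversed one. Groups did not overlap for any of the 10 genes, so leaving out a library or changing the pseudocount could not. The other settings left the differences themselves unchanged.

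For imiquimod against untreated skin, 5287 rows passed, 3280 at a threshold of 0.01 and 4412 to 5408 without 1 library. Setting the medians of the listed genes equal between libraries removed a shift of 0.63 on the log2 scale and gave 1921 higher and 2676 lower rows, beside 2831 and 2456 in the authors' scaling. As 3326 rows are listed as higher and 2699 as lower, that shift may come from the listing and is no measure of scaling. Relative to it Cd207 was at -3.31, Flt3 at 1.59 and Ccr7 at 6.13. The log2 ratio of Cd207 to Itgax ran from -9.36 to -7.66 without 1 library, where the smallest possible exact permutation p is 0.2.

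For lidocaine, 128 rows passed, 44 higher and 84 lower, with 128 higher and 24 lower at equal medians. There 56 passed with a pseudocount of 0.1, 2 with adjustment over all protein-coding genes, 13 at a threshold of 0.01, and 22 to 147 without 1 library (49 and 34 without lidocaine replicate 2 or 3, and 22, 62 and 58 without imiquimod replicate 1, 2 or 3). With a pseudocount of 10 or a minimum mean of 100 limma called 0, with 286 and 118 rows at an unadjusted p under 0.05. The cause was not tested. As none of the 10 genes is in that table, they have no values there under any alternative.

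The replicate numbers did not pair the libraries: same-numbered libraries had correlations of deviations of -0.23 to -0.014 in the imiquimod table and -0.18 to -0.064 in the lidocaine table, and 0 of 6 libraries in each correlated best with its own number. With a replicate block 4756 and 92 rows passed, and all 10 genes did.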
